A study of Mus musculus with 6 samples.

Results

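Core clock and clock output genes were measured in heart ventricle RNA of 6 mice on western diet (WD), 3 given Tributyrin and 3 given vehicle. The 10 genes were taken as a list by symbol, and all 10 were found among the 54232 genes in the counts, 3 of them activators (*Arntl*, *Clock*, *Npas2*), 5 repressors (*Per1*, *Per2*, *Per3*, *Nr1d1*, *Nr1d2*) and 2 outputs (*Dbp*, *Tef*). All 6 mice were WT C57BL/6J on WD for 15 weeks before treatment, and 3 were then needle-fed Tributyrin at 5 g/kg body weight for 3 weeks while 3 received vehicle, which the sample labels call PBS. Tributyrin is a triglyceride of butyrate, given on alternate pairs of days. The sources used here state neither the age of these mice nor the time of day at which the hearts were taken. Nothing in the labels says whether mice of a group shared a cage or litter.

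The clock of a mouse heart is a feedback loop that runs in each cell. BMAL1, the product of *Arntl*, pairs with CLOCK or NPAS2 and turns on genes that carry an E-box, among them the *Per* genes, *Nr1d1*, *Nr1d2*, *Dbp* and *Tef*. The PER proteins then block the activators, and REV-ERBα and REV-ERBβ, the products of *Nr1d1* and *Nr1d2*, shut off *Arntl* and *Npas2* through ROR elements, so that activators and targets peak at opposite times of day. DBP and TEF are transcription factors that carry the rhythm to other genes through the D-box. In mouse tissues *Arntl* transcript is high around the end of the night, and *Dbp* and *Nr1d1* follow during the light phase. *Clock* and *Per1* respond to other signals as well and often cycle less or, for *Per1*, can be induced by glucocorticoids.

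Motifs of these proteins were searched near the starts of the 10 genes. RefSeq windows on GRCm38.p6, from 250 bases before to 50 bases after a start, were found for 9 of the 10 genes (14 windows in all), with *Per2* the one not matched. The letters searched on both strands were CACGTG for the E-box, CACGTT for the related E'-box, TTATGTAA or else TTACGTAA for the D-box, TAGGTCA with its variants TAGGTTA and TGGGTCA for the ROR element and TGACGTCA for the cyclic AMP element. The sites of *Arntl* are shown because this gene varied most between the mice. Its 2 ROR elements, in capitals on the plus strand of chr7:113207493-113207522 and chr7:113207529-113207558, begin 6 bases before and 31 bases after one annotated start and share no base.

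*Arntl*, first ROR element: ttggtcggaaagTAGGTTAgtggtgcgaca

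*Arntl*, second ROR element: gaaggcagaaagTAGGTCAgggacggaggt

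The 250 bases before a start are shown for *Per1* (chr11:69098699-69098948, plus strand), *Per3* (chr4:151044666-151044915, minus strand), *Nr1d1* (chr11:98775378-98775627, minus strand) and *Tef* (chr15:81802423-81802672, plus strand), the target genes in which a motif was found. Capitals mark the E-box in *Per1* and *Tef*, the D-box in *Per3* and the E'-box, read on its other strand, in *Nr1d1*.

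*Per1*: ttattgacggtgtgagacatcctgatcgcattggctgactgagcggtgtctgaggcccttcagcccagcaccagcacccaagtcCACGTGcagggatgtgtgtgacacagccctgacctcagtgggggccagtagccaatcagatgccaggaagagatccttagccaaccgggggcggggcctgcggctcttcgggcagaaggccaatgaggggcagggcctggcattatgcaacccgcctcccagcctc

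*Per3*: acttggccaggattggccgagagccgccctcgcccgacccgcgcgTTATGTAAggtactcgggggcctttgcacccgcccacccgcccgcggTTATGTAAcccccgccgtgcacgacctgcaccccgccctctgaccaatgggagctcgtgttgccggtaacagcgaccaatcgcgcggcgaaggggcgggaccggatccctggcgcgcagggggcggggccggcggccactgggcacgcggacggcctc

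*Nr1d1*: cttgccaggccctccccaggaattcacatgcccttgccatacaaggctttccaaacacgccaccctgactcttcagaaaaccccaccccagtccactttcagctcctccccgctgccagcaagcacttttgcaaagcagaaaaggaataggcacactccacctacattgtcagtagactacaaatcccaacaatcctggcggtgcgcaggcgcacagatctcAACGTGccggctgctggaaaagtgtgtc

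*Tef*: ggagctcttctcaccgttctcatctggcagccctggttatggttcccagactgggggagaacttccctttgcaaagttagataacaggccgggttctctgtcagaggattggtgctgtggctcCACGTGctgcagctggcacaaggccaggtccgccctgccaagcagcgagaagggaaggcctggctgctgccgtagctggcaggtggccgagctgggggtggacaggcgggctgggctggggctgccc

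*Per3* held 2 D-boxes, which begin 205 and 158 bases before its start. The E-box began 166 bases before the start in *Per1*, and the E'-box of *Nr1d1* began 28 bases before it. Both annotated starts of *Tef* had an E-box, at 127 bases before the start shown and 138 bases before the other. None of the letters searched overlapped another motif in these windows. *Clock*, *Npas2*, *Nr1d2* and *Dbp*, 4 of the 9 genes matched, held none of the letters searched in these windows. The E-box was in 3 of the 14 windows, against 7.15% of all 32851 windows, and the E'-box in 1 of 14, against 4.68%. The D-box was in 1 of 14, against 1.06%, a ROR element in 2 of 14, which overlap each other, against 7.81%, and the cyclic AMP element in 0 of 14, against 1.79%. With so few windows these counts are a description, nothing is drawn from a window without a match, and no binding was measured in these hearts.

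Library totals ran from 20369746 to 32734485 counts, and the smallest belonged to vehicle replicate 3, followed by Tributyrin replicate 3 at 24333168. All 7 markers of cardiomyocytes were detected in every mouse, and 0 of 4 adipocyte markers passed the filter on low counts, with *Ucp1* at 0 in all 6. Atrial markers were present at a summed 53.8 to 182 reads per 1000000 reads (CPM) in the vehicle mice and 31.04 to 64.4 CPM in the Tributyrin mice. All 5 of them had lower estimates with Tributyrin. In edgeR 4 were at an unadjusted p under 0.05, against 4.25% of all genes tested. At an FDR of 10% 0 passed, against 0%. These 4 were highest in vehicle replicates 1 and 2 and lowest in vehicle replicate 3. *Myl7*, for example, was at 66.4, 56.4 and 4.21 CPM with vehicle and at 7.37, 18.3 and 7.49 CPM with Tributyrin. *Nppa*, the remaining marker, was highest in vehicle replicate 3. The part of the atrial markers in the results below was not tested. In all 6 mice *Ddx3y*, a Y-linked gene, exceeded *Xist*, so sex did not separate the groups. Levels are given as CPM, with library sizes scaled by the TMM method, and groups as mean ± SD (n = 3). Gene positions are those of GENCODE M21 on GRCm38.

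**Figure D1:**
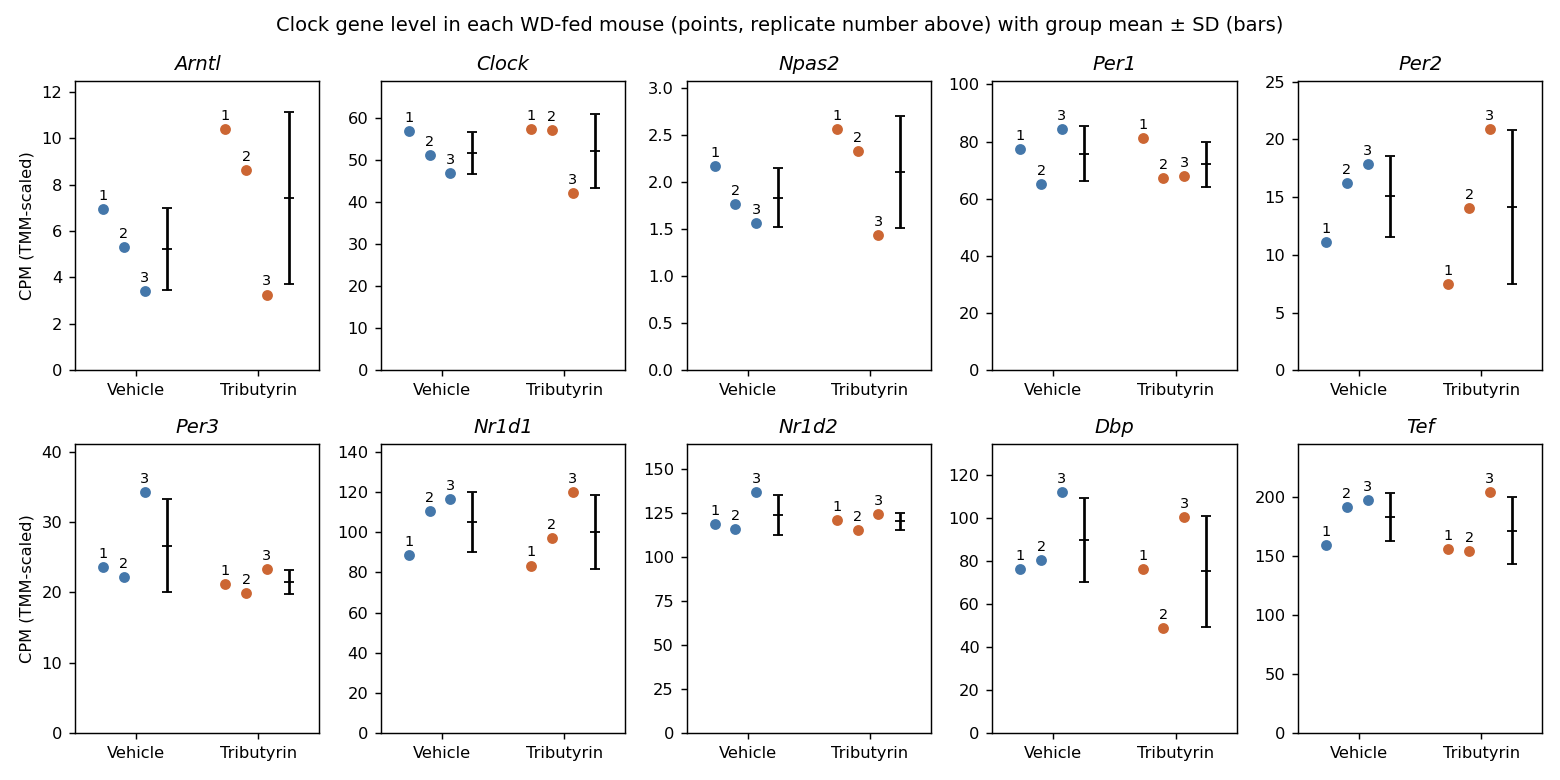
Level of each clock gene in each mouse, in TMM-scaled CPM on axes that start at 0, with the replicate number above each point and the group mean ± SD (n = 3) as a bar. *Arntl* runs from 3.26 to 10.4 CPM, and in each of the 10 genes the points of the groups overlap.

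*Arntl* (chr7:113207465-113314126), the activator that the mouse heart clock cannot run without, was at 6.96, 5.33 and 3.41 CPM in vehicle replicates 1, 2 and 3. It was at 10.4, 8.65 and 3.26 CPM in Tributyrin replicates 1, 2 and 3. The lowest mouse of all was a Tributyrin mouse, as was the highest, and they differed 3.18-fold. These values rest on 72 to 292 reads per library, and the relative counting error is at most 11.8%, against a spread between mice of 34.0% with vehicle and 49.98% with Tributyrin. In bulk tissue, fewer cells that express a gene and less RNA per cell cannot be told apart.

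*Clock* (chr5:76209868-76304792), the partner of BMAL1, was at 56.9, 51.3 and 46.9 CPM with vehicle and at 57.4, 57.2 and 42.1 CPM with Tributyrin. It varied much less than *Arntl*, with 1.36-fold between the highest and the lowest mouse. *Npas2* (chr1:39193731-39363236), which can stand in for CLOCK, was at 2.17, 1.77 and 1.56 CPM with vehicle and at 2.56, 2.34 and 1.44 CPM with Tributyrin, 1.78-fold from lowest to highest. All 3 activators were highest in Tributyrin replicate 1 and lowest in Tributyrin replicate 3, and all 3 put the 6 mice in the same order. *Npas2* rests on 33 to 72 reads, with a counting error of up to 17.4%. The 3 highest *Clock* mice (57.4, 57.2 and 56.9 CPM) lie within its counting error of up to 3.21%. The same holds for the lowest 2 *Arntl* mice (3.41 and 3.26 CPM, counting error up to 11.8%), so the shared order is uncertain there.

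*Per2* (chr1:91415982-91459324), a repressor, ran the other way. It was at 11.1, 16.3 and 17.8 CPM with vehicle and at 7.51, 14.1 and 20.9 CPM with Tributyrin, lowest in the mouse with the most *Arntl* and highest in the mouse with the least, 2.78-fold apart. *Per1* (chr11:69095217-69109960) was at 77.5, 65.3 and 84.3 CPM with vehicle and at 81.1, 67.3 and 67.8 CPM with Tributyrin, a 1.29-fold range that did not follow *Arntl*. *Per3* (chr4:151003652-151044665) was at 23.6, 22.2 and 34.3 CPM with vehicle and at 21.3, 19.9 and 23.3 CPM with Tributyrin. Only vehicle replicate 3 stood away from the other 5 mice in *Per3*, and *Per1* was highest in that mouse too. *Camta1* overlaps *Per3* on the same strand but shares 0 exonic bases with it. It lay between 145.8 and 160.4 CPM and was also highest in vehicle replicate 3.

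*Nr1d1* (chr11:98767932-98775333), which encodes REV-ERBα, was at 88.6, 110.4 and 116.8 CPM with vehicle and at 83.4, 97.0 and 120.1 CPM with Tributyrin. It was lowest in replicate 1 and highest in replicate 3 of each group, the reverse of *Arntl*. *Nr1d2* (chr14:18204054-18239127), which encodes REV-ERBβ, was at 118.9, 116.3 and 137.2 CPM with vehicle and at 121.3, 115.3 and 124.9 CPM with Tributyrin, the smallest range of the 10 genes at 1.19-fold. *Thra* overlaps *Nr1d1* on the opposite strand over 263 exonic bases, and no source used here states the strand setting of the counting. *Thra* lay between 91.7 and 110.3 CPM, and it was lowest in the mouse in which *Nr1d1* was highest.

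*Dbp* (chr7:45705088-45710203), the output gene that usually shows one of the widest swings of the clock, was at 76.2, 80.6 and 112.2 CPM with vehicle and at 76.4, 49.0 and 100.6 CPM with Tributyrin. Replicate 3 was the highest of each group, and Tributyrin replicate 2 lay below every other mouse, 2.29-fold under the highest. *Tef* (chr15:81802421-81826863), of the same family, was at 159.6, 191.4 and 197.3 CPM with vehicle and at 155.6, 154.0 and 204.2 CPM with Tributyrin, 1.33-fold from lowest to highest. *Sphk2* shares 539 exonic bases with *Dbp* on the opposite strand. It was at 15.7 to 21.7 CPM and was highest in the mouse in which *Dbp* was lowest.

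**Figure D2:**
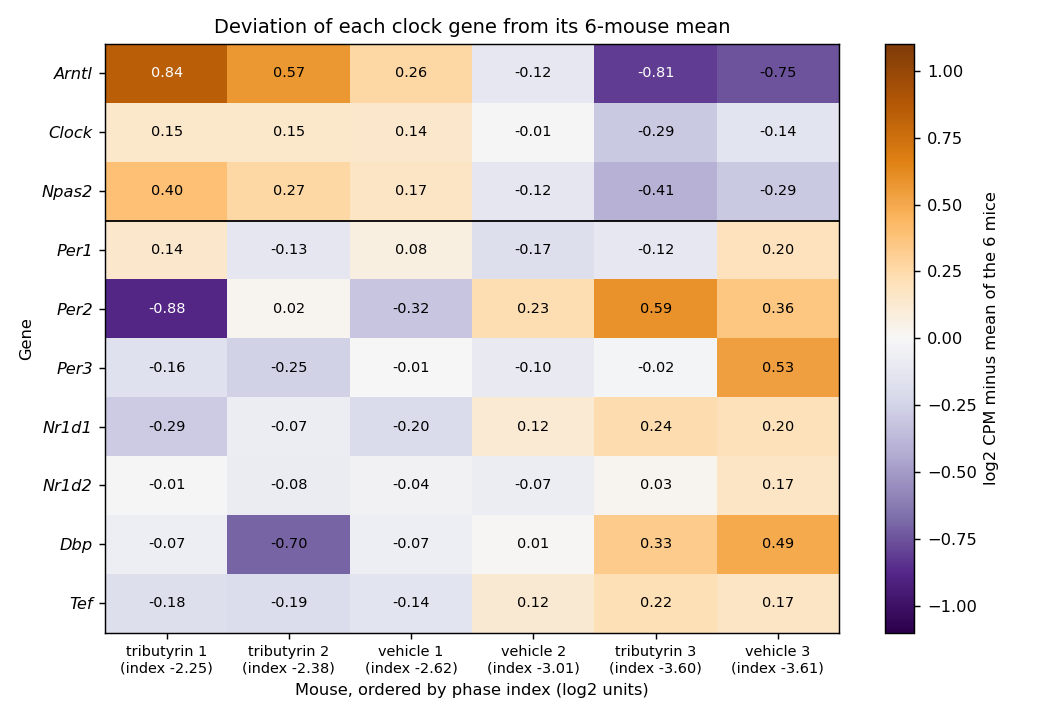
Deviation of each clock gene from its own 6-mouse mean, in log2 CPM, with mice in columns ordered by the phase index from high to low and activators above the black line. *Arntl* changes from 0.84 in Tributyrin replicate 1 to -0.81 in Tributyrin replicate 3, and *Per2*, *Nr1d1* and *Tef* change the other way.

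The phase pattern of each mouse was summed up as an index, the mean log2 CPM of the 3 activators minus the mean log2 CPM of the 7 other genes. A higher index means more activator transcript against target transcript, and it gives an order of the mice, not an hour of the day. The index was -2.62, -3.01 and -3.61 in vehicle replicates 1, 2 and 3, and -2.25, -2.38 and -3.60 in Tributyrin replicates 1, 2 and 3. Both groups thus had a mouse at the low end, and these had the 2 smallest library totals. The mean was -3.08 ± 0.50 with vehicle and -2.74 ± 0.74 with Tributyrin, a difference of 0.34 with a standard error of 0.52. The difference was smaller than the range within either group, which was 0.98 with vehicle and 1.35 with Tributyrin. It was 0.08 without vehicle replicate 3, 0.09 without Tributyrin replicate 1, 0.16 without Tributyrin replicate 2, 0.57 without vehicle replicate 1 and 0.77 without Tributyrin replicate 3. No test was made of the index, since it is a score over genes chosen as a list.

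Single genes showed how each mouse was placed. In vehicle replicate 1 and Tributyrin replicates 1 and 2, all 3 activators were above their 6-mouse mean and 1 of the 7 other genes was. In vehicle replicate 3 the activators were all below the mean and all 7 other genes above it, and in Tributyrin replicate 3 the activators were all below and 5 of the 7 above. Vehicle replicate 2 was in between, with the activators just below their means and 4 of the 7 other genes above. Per length, *Dbp* exceeded *Arntl* 27.6, 38.0 and 82.8 times in the vehicle mice and 18.5, 14.3 and 77.5 times in the Tributyrin mice. *Nr1d1* exceeded *Arntl* 31.1, 50.6 and 83.8 times with vehicle and 19.6, 27.4 and 89.9 times with Tributyrin. Each group thus held mice with a low and with a high ratio of target to activator, and both ratios were highest in the replicate 3 mice.

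The 9 other genes were set against *Arntl* over the 6 mice on the log2 CPM scale. With both groups pooled, *Npas2* followed *Arntl* most closely, with Pearson's r = 0.99 (exact permutation p = 0.00139, the smallest that 6 mice allow, adjusted over the 9 relations 0.00625) and Spearman's rho = 1 (exact permutation p = 0.00278, adjusted 0.0125). *Clock* had r = 0.94 (exact permutation p = 0.00139, adjusted 0.00625) and rho = 1 (exact permutation p = 0.00278, adjusted 0.0125). The highest mice in *Clock* lie within its counting error, so the rank order behind this rho is uncertain. *Tef* had r = -0.95 (exact permutation p = 0.00694, adjusted 0.0208), *Nr1d1* r = -0.93 (exact permutation p = 0.0153, adjusted 0.0344) and *Per2* r = -0.87 (exact permutation p = 0.0194, adjusted 0.0350). These 3 had the same rho of -0.94 (exact permutation p = 0.0167, adjusted 0.0300).

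The remaining relations with *Arntl* did not pass 0.05 after adjustment. *Dbp* had r = -0.79 and rho = -0.77 (exact permutation p = 0.05 and 0.103, adjusted 0.0750 and 0.154), and *Per3* had r = -0.69 and rho = -0.66 (exact permutation p = 0.0819 and 0.175, adjusted 0.105 and 0.225). *Nr1d2* had r = -0.66 and rho = -0.54 (exact permutation p = 0.136 and 0.297, adjusted 0.153 and 0.334), and *Per1* had r = 0.060 and rho = 0.029 (exact permutation p = 0.903 and 1, adjusted 0.903 and 1). Without the 2 mice farthest from the median of *Arntl*, which were both replicate 3 mice, r was 0.98 for *Npas2*, 0.86 for *Clock*, -0.87 for *Tef*, -0.81 for *Nr1d1* and -0.78 for *Per2* over the 4 mice left. It was -0.38 for *Dbp*, -0.53 for *Per3*, 0.62 for *Per1* and 0.52 for *Nr1d2*, so the values for *Dbp* and *Nr1d2* rest on those mice. With 3 mice a group, no value within a group was computed, and all genes of a mouse share a library.

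WD + Tributyrin was then compared with WD + vehicle, gene by gene, to ask whether the treatment moved clock transcripts. In edgeR's quasi-likelihood fit, adjusted over all 14133 genes tested, 0 of the 10 genes passed an FDR of 10%, where 0% of all genes passed. At an unadjusted p under 0.05 there were 0 of the 10, against 4.25% of all genes. DESeq2 also gave 0 of the 10 at either threshold, against 0.0835% and 1.8% of all genes, and limma-voom gave 0 of the 10 against 0% and 4.28%. Without the filter on low counts edgeR gave 0 of the 10 past 10%, against 0.653% of all genes, and 3 at an unadjusted p under 0.05 (*Arntl*, *Dbp* and *Per3*), against 4.6%. With the replicate number as a block it gave 0 of the 10 past 10%, against 0.0142% of all genes, and the same 3 at an unadjusted p under 0.05, against 5.17%. With library size alone only *Per3* was under 0.05, beside 798 of 14133 genes. Only *Per3* was so too without vehicle replicate 1 (708 of 14458 genes) and without vehicle replicate 2 (400 of 14208 genes). Without Tributyrin replicate 3 *Arntl*, *Dbp* and *Tef* were under 0.05, beside 663 of 14521 genes. The CPM of the groups overlapped in all 10 genes, where 8.94% of all genes tested did not overlap. The median log2 fold change of the 10 genes was -0.07, with 3 estimates above 0 and 7 below, beside a median of -0.0013 over all genes tested.

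The estimates of the activators were above 0, although that of *Clock* was -0.05 with library size alone. For *Arntl* the log2 fold change, Tributyrin over vehicle, was 0.51 (standard error 0.36, 95% interval -0.29 to 1.31), from 5.23 ± 1.78 CPM to 7.44 ± 3.72 CPM. This interval runs from 0.819-fold to 2.48-fold, so the data leave room for a wide range of differences in *Arntl*. It was 0.21 for *Npas2* (95% interval -0.37 to 0.79), from 1.83 ± 0.31 CPM to 2.11 ± 0.60 CPM. For *Clock* it was 0.02 (95% interval -0.25 to 0.29), from 51.7 ± 5.0 CPM to 52.2 ± 8.8 CPM.

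The 7 other genes had estimates below 0. *Per3* had the smallest unadjusted p of the 10 genes (0.0708 in edgeR's model, adjusted p 0.999), and was at -0.31 on the log2 scale (standard error 0.15, 95% interval -0.65 to 0.03), from 26.7 ± 6.6 CPM with vehicle to 21.5 ± 1.7 CPM with Tributyrin. Without vehicle replicate 3, the mouse that stood apart in *Per3*, it was -0.09. When another mouse was left out, it lay between -0.43 (without vehicle replicate 2) and -0.25 (without Tributyrin replicate 2). The estimate of *Per3* stayed below 0 in all 13 alternatives. *Dbp* was at -0.25 (95% interval -0.75 to 0.24), from 89.7 ± 19.6 to 75.3 ± 25.8 CPM, and *Per2* at -0.10 (95% interval -0.76 to 0.57), from 15.1 ± 3.5 to 14.2 ± 6.7 CPM. *Tef* was at -0.09 (95% interval -0.36 to 0.17), *Nr1d1* at -0.07 (95% interval -0.37 to 0.23) and *Per1* at -0.07 (95% interval -0.31 to 0.17). *Nr1d2* was at -0.04 and had the narrowest interval, from -0.22 to 0.14, which is 0.858-fold to 1.1-fold.

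**Figure D3:**
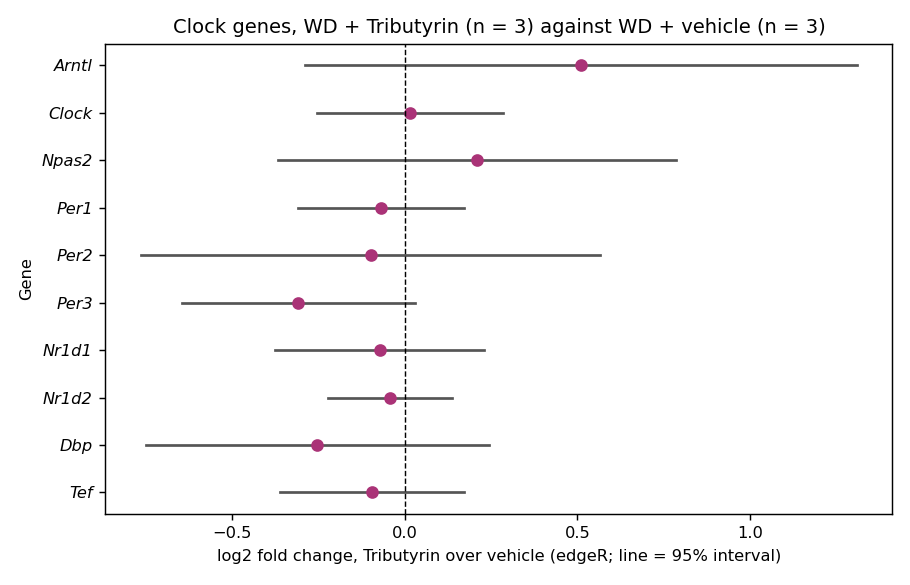
Log2 fold change of each clock gene with Tributyrin over vehicle (points) and its 95% interval from edgeR's quasi-likelihood fit (lines), with 3 mice in each group. All 10 intervals include 0, and that of *Arntl* is the widest, from -0.29 to 1.31.

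Single mice decided the size of several estimates. *Arntl* was at 0.20 without Tributyrin replicate 1 and at 0.85 without Tributyrin replicate 3, *Dbp* at -0.02 without Tributyrin replicate 2 and at -0.51 without Tributyrin replicate 3, and *Per2* at 0.22 without Tributyrin replicate 1 and at -0.48 without Tributyrin replicate 3. The adjusted p of the 10 genes was 0.134 or more in the alternatives run.

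The spread between mice of a group was larger for most of the 10 genes than for other genes of like level. Measured as the SD of log2 CPM within a group, pooled over the groups, it was 0.72 for *Arntl*, 0.58 for *Per2* and 0.43 for *Dbp*, beside a median of 0.15 over all genes tested. Against the 500 genes nearest in mean level, *Per2* was at percentile 99.8, *Dbp* at 99.2, *Arntl* at 99.0 and *Nr1d1* at 96.0. *Per3* was at percentile 94.2, *Tef* at 93.6 and *Clock* at 92.0, so that 7 of the 10 genes were above percentile 90. *Per1* was at percentile 88.0, *Npas2* at 68.6 and *Nr1d2* at 55.6. These percentiles describe single genes and were not tested.

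**Figure D4:**
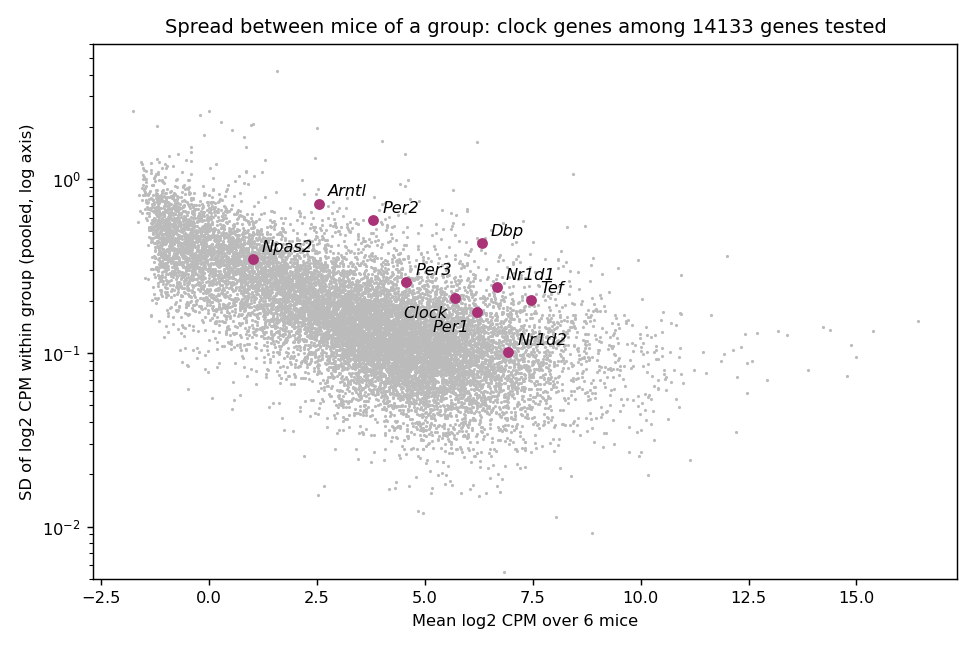
Spread between mice of a group (pooled SD of log2 CPM, log axis) against mean level (log2 CPM) for the 14133 genes tested (grey) and the 10 clock genes (named). *Arntl*, *Per2* and *Dbp* lie at the upper edge of the genes of like level, with SDs of 0.72, 0.58 and 0.43, and *Nr1d2* lies in their middle at 0.10.

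Between genes, levels were compared as CPM per kilobase of exons in GENCODE M21. *Nr1d1* was highest, at a mean over the 6 mice of 33.4 ± 5.0 CPM per kilobase (SD, n = 6), followed by *Dbp* at 27.6 ± 7.3, *Nr1d2* at 22.6 ± 1.5 and *Tef* at 22.5 ± 2.9. *Nr1d1* was above *Dbp* in 6 of 6 mice although their ranges overlapped, while *Nr1d2* was above *Tef* in 4 of 6, so those neighbours did not differ beyond their spread. *Per1* followed at 13.1 ± 1.4 CPM per kilobase, apart from *Tef* above and *Clock* below in all 6 mice. *Clock* was at 3.79 ± 0.47, *Per3* at 2.51 ± 0.54 and *Per2* at 2.497 ± 0.82 CPM per kilobase, and *Per3* was above *Per2* in 3 of 6 mice. The activators *Arntl*, at 0.842 ± 0.38, and *Npas2*, at 0.412 ± 0.094, were lowest. In these hearts the transcripts of REV-ERB and PAR-domain genes were thus the most abundant of the list per length in every mouse, and *Npas2* the least.

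Of 31 other genes of the clock pathway, 30 passed the filter on low counts, and 0 passed an FDR of 10% with edgeR's quasi-likelihood test, where 0% of all genes passed. At an unadjusted p under 0.05 there were 0 higher and 1 lower with Tributyrin, against 4.25% of all genes in either direction. At an FDR of 10%, limma-voom and DESeq2 also called 0 of them, against 0% and 0.0835% of all genes. The median log2 fold change of the 30 was -0.02, with 12 above 0 and 18 below. *Bhlhe41*, a repressor that competes for the E-box, had the smallest p (0.0438 in edgeR's model, adjusted p 0.999), and was at -0.27 on the log2 scale (standard error 0.12), from 31.1, 29.99 and 34.6 CPM with vehicle to 30.2, 22.0 and 27.2 CPM with Tributyrin. *Kcnip2*, a potassium channel subunit whose level is rhythmic in the heart, was at -0.17 (unadjusted p 0.0769 in edgeR's model, adjusted p 0.999). *Nfil3*, a repressor at the D-box, was at 0.27 (unadjusted p 0.0926 in edgeR's model, adjusted p 0.999). *Fbxl21*, a ubiquitin ligase of the CRY proteins, did not pass the filter, with 1 to 12 reads per library.

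The next 4 genes of this pathway were chosen after their values were seen. *Ciart*, a repressor of the activators, was at 6.995, 7.16 and 9.32 CPM with vehicle and at 4.70, 4.57 and 13.4 CPM with Tributyrin, a 2.93-fold range with replicate 3 highest in each group. *Tspan4* was at 15.0, 17.5 and 18.7 CPM with vehicle and at 14.0, 13.9 and 20.02 CPM with Tributyrin. *Usp2*, a deubiquitinase that cycles in many tissues, was at 146.5, 160.3 and 168.3 CPM with vehicle and at 148.5, 153.7 and 166.7 CPM with Tributyrin. In all 3 genes replicate 3 was the highest mouse of its group, but the lowest mouse was Tributyrin replicate 2 in *Ciart* and *Tspan4* and vehicle replicate 1 in *Usp2*, so none of them ordered the 6 mice as *Per2* did. *Cry1*, whose transcript peaks late in the cycle, was at 9.10 to 10.2 CPM with vehicle and at 9.28 to 11.01 CPM with Tributyrin, with little spread.

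**Figure D5:**
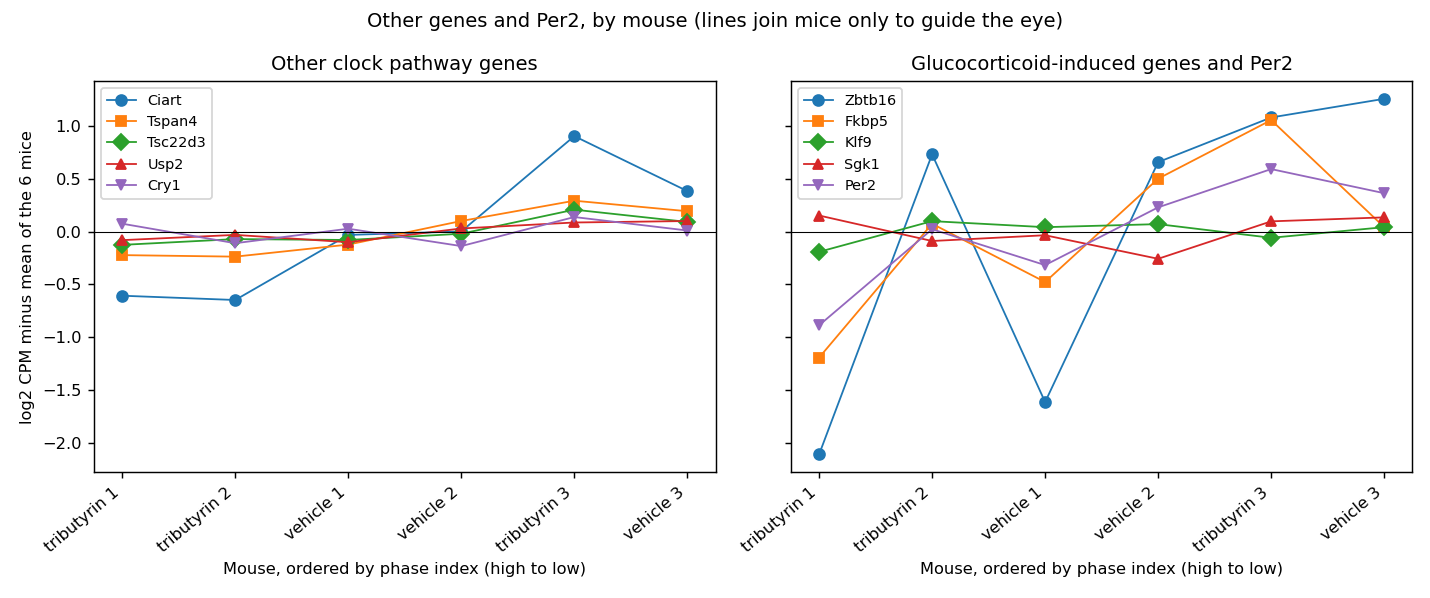
Other clock pathway genes (left) and glucocorticoid-induced genes with *Per2* (right), as log2 CPM minus the mean of the 6 mice, with mice ordered by the phase index from high to low. *Ciart* and *Tspan4* are higher in both replicate 3 mice than in Tributyrin replicates 1 and 2, and *Zbtb16* runs from 17.2 CPM in Tributyrin replicate 1 to 176.5 CPM in vehicle replicate 3.

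Genes whose pattern over the 6 mice was most like the phase index were taken from 9690 genes with a mean of at least 5 CPM. The 5 with the highest Pearson's r were *Usp20* (r = 0.99), *Gcc1* (0.98), *Tmtc2* (0.98), *Nars* (0.98) and *Lrrc3b* (0.98), and the 5 with the lowest were *Ddx39* (r = -0.99), *Mcm7* (-0.98), *Pnmal2* (-0.98), *Tspan4* (-0.98) and *Hdhd5* (-0.97). They were chosen for this likeness, so no test was made, and 137 of the 9690 genes, or 1.41%, had an r over 0.9 in size. Of the other clock pathway genes ranked, 4 of 29, or 13.8%, had one (*Ciart*, *Tspan4*, *Usp2* and *Tsc22d3*). The level of *Lrrc3b* ran from 16.9 to 25.3 CPM and that of *Usp20* from 54.6 to 64.6 CPM, both lowest in a replicate 3 mouse.

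Glucocorticoid-induced genes also differed between the mice. *Zbtb16* was at 24.2, 116.6 and 176.5 CPM with vehicle and at 17.2, 122.7 and 156.2 CPM with Tributyrin, a 10.3-fold range. *Fkbp5*, a chaperone of the glucocorticoid receptor, was at 35.7, 70.3 and 51.2 CPM with vehicle and at 21.8, 52.3 and 103.2 CPM with Tributyrin. Both were lowest in the replicate 1 mice, where *Per2* was lowest too. *Sgk1* (56.7 to 75.2 CPM) and *Klf9* (143.2 to 175.1 CPM) did not share this order. Nor did *Per1*, which was at 77.5 CPM in vehicle replicate 1 and 81.1 CPM in Tributyrin replicate 1. Only vehicle replicate 3 was higher in *Per1*, at 84.3 CPM. *Tsc22d3* was at 102.9, 107.2 and 115.8 CPM with vehicle and at 99.7, 103.5 and 125.5 CPM with Tributyrin, highest in the replicate 3 mice. It was listed with the other clock pathway genes, not with the 4 glucocorticoid-induced genes. The groups overlapped in *Tsc22d3* and in those 4, where 8.94% of all genes tested did not overlap. The part of glucocorticoid signals in the clock gene pattern was not tested.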

How the data were processed

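Heart ventricle RNA of 6 mice was sequenced as stranded mRNA, with single-end reads of 50 bases. The authors trimmed adapters (cutadapt 1.13), removed poor and rRNA reads, aligned to mm10 with STAR and counted reads per gene with htseq-count (HTSeq 0.6.1p1, per the submitters' processing notes). They deposited whole-number counts per Ensembl gene without normalization, and no source used here states the annotation release or strand setting. Of 54232 identifiers, 54165 matched GENCODE M21 (GRCm38), which gave symbols, positions and exonic lengths. No line lacked a gene name (0 lines). Library totals ran from 20369746 to 32734485 counts, and no pair of libraries was within sampling noise (chi-square per degree of freedom 7.40 to 31.8). P-values of the group comparison set the difference against the spread between these mice, estimated with information shared across genes. Those of the relations with *Arntl* come from the permutations described below.

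The 14133 genes left by filterByExpr (minimum count 10, minimum total 15) were compared with edgeR 4.0.16 (quasi-likelihood test, TMM, no covariate, Benjamini-Hochberg adjustment) in R 4.3.3. Log2 CPM used a prior count of 2, and 95% intervals came from the fit. DESeq2 1.42.0, limma 3.58.1 (voom), other scalings and filters, a replicate block and leaving out each mouse were alternatives. Relations used exact permutation over all 720 pairings, two-sided. Only the edgeR fit was tested on simulated counts. These had the same dispersion in every gene, so that test does not measure power for the clock genes. The genes and lists were chosen with earlier results of these data known, from textbook roles in the clock, and the likeness rule took 5 genes at each end. Genes named are the 10 clock genes, those of the pathway lists past 10% or with the 3 smallest p, and the genes of the likeness rule, and other genes of the lists were named after their values were seen. Promoter sequences are from RefSeq (GRCm38.p6). Figures used Python 3.11.15 and matplotlib 3.10.9.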

Additional observations from a re-analysis of the deposited data

How the results depend on the processing

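The count of clock genes past an FDR of 10% was 0 in each of the 13 alternatives run, and so was that of the other clock pathway genes. Over all genes the count was 0 with edgeR, and it moved to 167 without the low-count filter, to 11 with DESeq2 and to 2 with the replicate block. Leaving out single mice gave 0 to 3. The cause was not tested. Of 129 alternative estimates (log2) for the 10 genes, 119 kept their direction and 10 reversed. *Clock* was at -0.0515 with library size alone and lay between -0.05345 and 0.1496 over the fits that left out a mouse, *Per1* between -0.1663 and 0.01536, *Per2* between -0.4771 and 0.2154, *Nr1d1* between -0.2196 and 0.04966 and *Nr1d2* between -0.08754 and 0.03553. Without vehicle replicate 3 all 5 changed sign, *Clock* and *Per2* did so also without Tributyrin replicate 1, as did *Nr1d1*, and *Clock* without Tributyrin replicate 2. Library size alone moved the median of all genes by -0.07. *Npas2* was not tested with a mean CPM of at least 5, which it does not reach.

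Samples of the same replicate number deviated together over all genes with correlations of 0.21, 0.04 and 0.01, and 4 of 6 correlated best with their own number. These values do not settle whether the numbers mark pairs, and no pairing was assumed in the main fit. Under the replicate block 0 clock genes passed 10%, and 3 (*Arntl*, *Dbp* and *Per3*) had an unadjusted p under 0.05, against 5.17% of all genes. The index difference was 0.34 in this pairing, with a standard error of 0.18 in place of 0.52, and the differences between mice of the same number were 0.38, 0.63 and 0.01. It was 0.69 as *Arntl* minus *Dbp* alone. *Arntl* and *Npas2* had the fewest reads, at most 292 and 72 in a library. For *Arntl* the spread between mice (34.0% with vehicle, 49.98% with Tributyrin) exceeded the counting error of at most 11.8%. For *Npas2* the spread was 17.0% with vehicle and 28.2% with Tributyrin, beside a counting error of up to 17.4%.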

Other observations

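Metabolic genes that cycle in the mouse heart were measured too. *Pdk4*, a kinase that shuts off pyruvate oxidation, was at 443.5, 529.2 and 399.8 CPM with vehicle and at 355.9, 664.0 and 522.7 CPM with Tributyrin. *Ucp3*, a mitochondrial carrier, was at 85.8, 50.7 and 54.0 CPM with vehicle and at 94.3, 59.3 and 65.4 CPM with Tributyrin, highest in replicate 1 of each group. *Klf15*, a regulator of metabolic rhythm, was at 86.1, 94.8 and 83.5 CPM with vehicle and at 65.5, 85.8 and 108.5 CPM with Tributyrin. *Tfrc*, the transferrin receptor, was lowest in Tributyrin replicate 2 at 70.2 CPM, the mouse that was also lowest in *Dbp*, and lay between 107.4 and 134.4 CPM in the other 5 mice. In these 4 genes, named after their values were seen, the groups overlapped, where 8.94% of all genes tested did not overlap. With edgeR's quasi-likelihood test 0 of the 4 had an unadjusted p under 0.05, against 4.25% of all genes.

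Of 4 immediate early genes, the groups did not overlap in *Fos*, at 1.11, 0.884 and 1.04 CPM with vehicle and 1.39, 1.29 and 1.65 CPM with Tributyrin, where 8.94% of all genes tested did not overlap. Its log2 fold change was 0.52 (standard error 0.25, unadjusted p 0.0680 in edgeR's model, adjusted p 0.999). The values of *Fos* rest on 28, 30 and 22 reads with vehicle and 39, 37 and 38 with Tributyrin. For *Npas2*, 33 reads gave a counting error of 17.4%, so the gap between the groups in *Fos* is uncertain. *Egr1*, *Junb* and *Dusp1* overlapped, with log2 fold changes of -0.24, -0.03 and 0.13.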
